A study of Drosophila melanogaster with 4 samples.

Results

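The H/ACA small nucleolar RNA (snoRNA) genes were described in RNA-seq libraries of wing imaginal discs of Drosophila melanogaster, the epithelial sacs from which the wings develop, dissected from wandering larvae of the third instar. The members were all gene features whose FlyBase symbol starts with snoRNA:Psi, and 105 of the 15222 features of the count files met this rule. The wtsP2 group held 2 libraries from larvae with the wtsP2 allele of warts, wts, the Hippo pathway kinase gene, and the wild-type group held 2 libraries. The labels give the strain yw for both groups, total RNA from hand-dissected discs, and no statement on separate cultures or on the number of larvae pooled. P-values thus measure only the spread between these libraries, which may be technical.

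H/ACA snoRNAs fold into a pair of hairpins joined by a hinge that carries the H box, and end with an ACA box. Each hairpin can hold a pocket that base-pairs with a target RNA and presents a uridine to the pseudouridine synthase dyskerin, encoded in flies by Nop60B, which works together with NHP2, Nop10 and Gar1. Most of these RNAs are cut from the introns of other genes, called host genes, many of which code for ribosomal proteins. A symbol such as snoRNA:Psi28S-3186 states the ribosomal RNA (28S) and the uridine that the RNA is annotated to guide, and a final letter separates copies with the same target. Warts, the kinase encoded by wts, restrains tissue growth by phosphorylating the coactivator Yorkie.

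By their symbols, 46 members target 18S rRNA at 18 positions and 59 target 28S rRNA at 32 positions. Of the 105 genes, 74 belong to 19 families of 2 or more copies with the same target, and 31 are single. The deposited lengths ran from 123 to 267 bases (median 139). In the coordinates of the count files, 100 members lie inside the span of a gene on the same strand and 5 do not. The hosts were 26 genes, of which 12 encode ribosomal proteins and carry 40 members. The most crowded host was Arpc2, for a subunit of the actin-nucleating Arp2/3 complex, with 17 members. RpS5a followed with 14, dom (domino, a chromatin-remodelling ATPase gene) with 12 and kra (krasavietz, for a translation regulator) with 8. In the BDGP6 annotation 97 of these 100 members could be looked up, and all 97 members lay within the host with no overlap with its exons.

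Library totals were 3520970 and 3846682 counts in wtsP2 and 2112468 and 696952 in wild type. The wts gene had 48 and 24 counts in wtsP2, against 46 and 0 in wild type, and its change was too imprecise to check the genotype labels (log2 fold change -0.15 ± 2.36, SE; n = 2 in each group; edgeR adjusted p = 0.999). Of 7 wing disc marker genes listed, 4 were matched by symbol and ID, and their summed level was 1218 and 1253 CPM (counts scaled by the library total) in wtsP2 and 1314 and 1198 in wild type, so the sums overlapped. Among them vg was lower in both wtsP2 libraries, nub and pdm2 were higher in both, and sd overlapped. Some markers of other tissues differed between the groups. All 6 fat body markers lay lower in both wtsP2 libraries, with sums of 845 and 1155 CPM in wtsP2 against 18077 and 18742 in wild type. The 6 salivary gland markers summed to 5.11 and 1.30 CPM in wtsP2 (Sgs5, Sgs7 and Sgs8 at 0 in both libraries) and to 357 and 296 in wild type, and the 3 tracheal markers matched to 1224 and 981 against 232 and 201. The sums of 5 blood cell markers were 155 and 229 CPM in wtsP2 and 452 and 693 in wild type. Of these markers, srp and PPO2 were lower in both wtsP2 libraries, while Hml, Pxn and NimC1 overlapped. The sums of 4 muscle markers were 103 and 98.5 CPM in wtsP2, against 135 and 426 in wild type. The muscle markers did not go one way, since twi had 80 and 79 counts in wtsP2 and 0 and 0 in wild type, Mef2 and Act57B were lower in both wtsP2 libraries, and Mlc2 overlapped. The part of these differences in the values of the snoRNA genes was not tested. In bulk samples, fewer cells of a type and less RNA per cell cannot be told apart.

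As a class, the H/ACA snoRNA genes took shares of the counts that overlapped between the genotypes. They took 5.40% and 7.02% of all counts in the wtsP2 libraries and 6.18% and 6.94% in the wild-type libraries, with 95% Wilson intervals, for counting error only, of 5.38% to 5.42%, 6.99% to 7.04%, 6.15% to 6.21% and 6.88% to 6.997%. The wtsP2 libraries held both the lowest and the highest share. The means were 6.21% ± 1.14 in wtsP2 and 6.56% ± 0.536 in wild type (SD, n = 2 each; two-sided exact permutation p = 1.00, where this design cannot go below 0.333). The 111 other snoRNA genes, most of them box C/D guides of methylation, took 3.73% and 6.08% in wtsP2 and 4.67% and 5.58% in wild type. The ratio of H/ACA to other snoRNA counts, which does not depend on library scaling, was 1.45 and 1.15 in wtsP2 and 1.32 and 1.24 in wild type (means 1.30 ± 0.207 and 1.28 ± 0.0570, SD, n = 2 each; exact permutation p = 1.00). Guides of 18S rRNA made up 52.9% and 49.3% of the H/ACA counts in wtsP2 and 45.9% and 59.5% in wild type, so the groups overlapped there too.

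**Figure D1:**
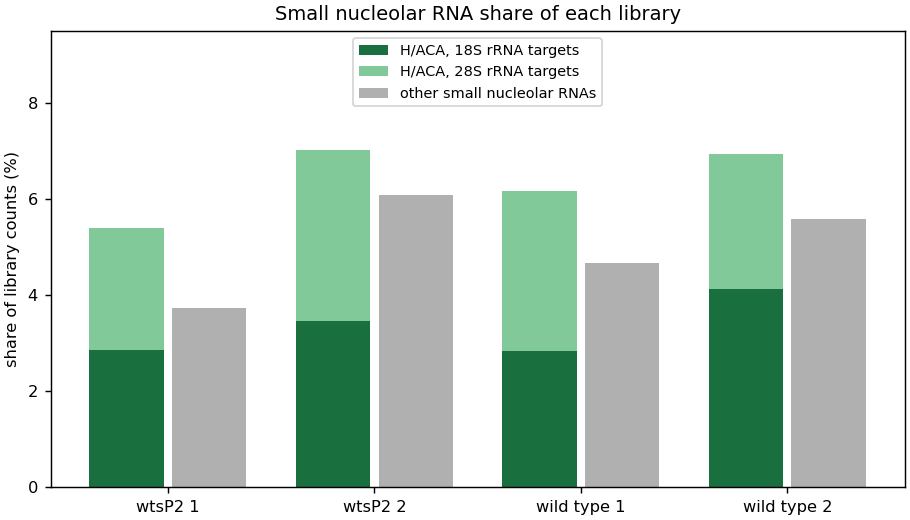
Share of all library counts, in percent, taken by H/ACA snoRNA genes with 18S and 28S rRNA targets (stacked green bars) and by the other snoRNA genes (grey bars) in each of the 4 libraries. The H/ACA shares of 5.40% and 7.02% in wtsP2 enclose those of 6.18% and 6.94% in wild type.

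Single genes of the class spanned a wide range of levels. Levels are given as RPKM, reads scaled by feature length and library total, computed from the deposited counts and lengths. The mean over the 4 libraries ran from 0 to 74599 RPKM with a median of 1962, against a median of 16.1 over all 9363 features with a count. Of the 100 features with the highest mean RPKM, 45 were H/ACA snoRNA genes. The middle of the class, from percentile 25 to percentile 75, lay between 390 and 5046 RPKM. Of the 105 genes, 9 exceeded 10000 RPKM and 13 stayed under 100.

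The highest member in every library was snoRNA:Psi18S-1377d (chromosome 3R, 26032878 to 26033013, minus strand, build BDGP5 by the submitters' processing notes), which lies in an intron of the ribosomal protein gene RpS7. It had 67157 and 42548 RPKM in wtsP2, against 37131 and 151559 in wild type. The wild-type libraries held both extremes. The gene alone supplied 16.8% and 8.19% of the H/ACA counts in wtsP2 and 8.11% and 29.5% in wild type, and its fitted change on the log2 scale was -0.64 ± 0.66 (SE; n = 2 in each group; edgeR adjusted p = 0.915). The value was -1.28 when the first wild-type library was left out and 0.61 when the second was.

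The next highest genes came from ribosomal protein hosts as well. Psi18S-1377c, also in RpS7, had 21737 and 32459 RPKM in wtsP2 and 16690 and 31007 in wild type. Psi28S-1060 in RpL17 had 24934 and 18454 RPKM in wtsP2 and 32914 and 20088 in wild type. In both of these genes the groups overlapped. Psi18S-920 in RpL10Ab had 14209 and 27222 RPKM in wtsP2 and 11855 and 14881 in wild type, overlapping on this scale but not after TMM scaling, where both wtsP2 libraries lay higher. Psi28S-1175b in RpS16 had 14144 and 8512 RPKM in wtsP2, against 18820 and 19042 in wild type, so both wtsP2 libraries lay lower. The other genes among the 12 highest were Psi18S-1295, Psi18S-1854c, Psi28S-3571, Psi18S-1377e, Psi28S-3385a, Psi28S-2179 and Psi28S-3316b, with means from 9694 to 14138 RPKM. Neighbours in this order, such as Psi28S-2179 and Psi28S-3316b at means of 9698 and 9694 RPKM, did not differ beyond the spread of their libraries.

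At the other end, 2 genes had no count in any library, Psi28S-1232 in RpL17 and Psi18S-640e in Arpc2. For a gene at 0, a floor of 3 counts allows up to 0.852 and 0.780 CPM in wtsP2 and 1.42 and 4.30 CPM in wild type. Another 6 genes were at 0 in both wild-type libraries with counts in wtsP2, and 0 genes showed the opposite, in libraries where wild type was sequenced less deeply. Counts in all 4 libraries were found for 87 of the 105 genes.

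Hosts and their guests could stand at unlike levels. The ribosomal protein gene RpS29 had a mean of 3329 RPKM over its exons and its guest Psi18S-1275 258 RPKM, and RpL36A had 1862 RPKM while its guest Psi28S-2648 had 21.4. By contrast dom had 67.1 RPKM and its 12 guests between 1495 and 9694, and kra had 238 RPKM and its 8 guests between 50.0 and 10786. Inside 1 host the guests differed as well, by up to 9694 against 1495 RPKM in dom and by 74599 against 1545 RPKM in RpS7.

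**Figure D2:**
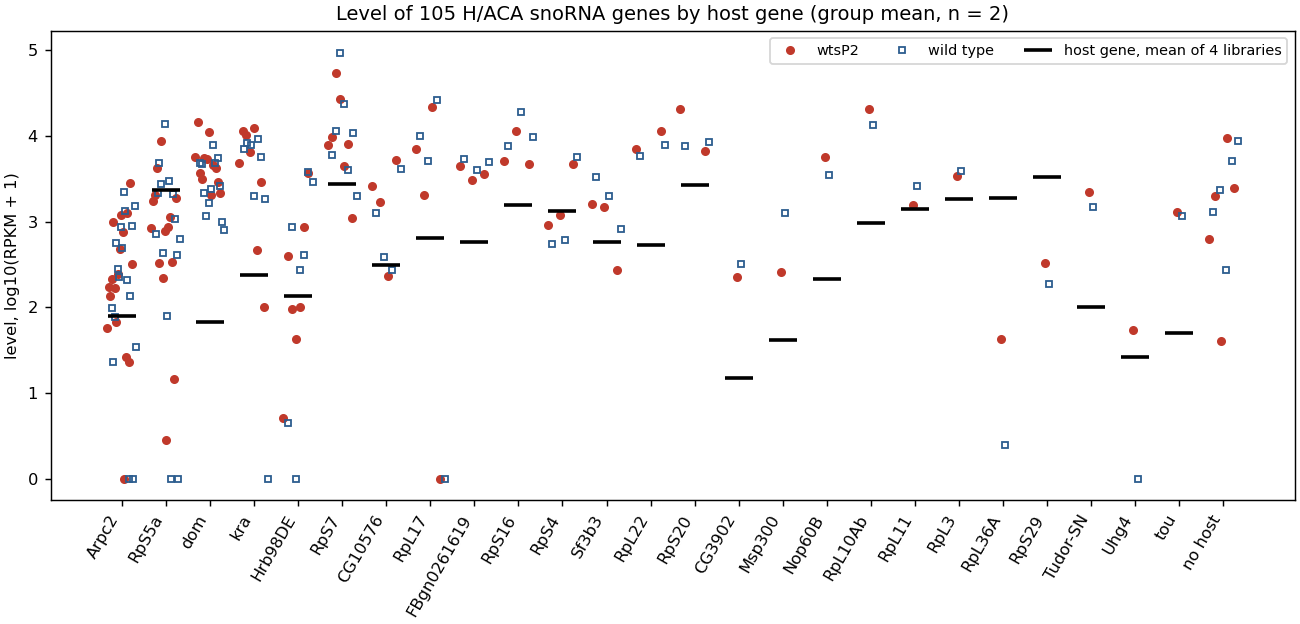
Level of all 105 H/ACA snoRNA genes as log10(RPKM + 1), grouped by host gene, with the mean of the wtsP2 libraries as red dots and that of the wild-type libraries as blue squares (n = 2 each) and the host gene itself as a black bar. All guests of dom and 7 of 8 guests of kra lie above their hosts, and those of RpS29 and RpL36A below theirs.

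Copies with the same annotated target stood at unequal levels. Near-identical copies could share reads in the counting, so single values inside a family are uncertain and the sums are given too. The 5 copies of Psi18S-1377, all in RpS7, summed to 15289 and 12989 CPM in wtsP2 and to 10811 and 28336 in wild type, and the mean RPKM of the highest copy was 17.5 times that of the lowest. The 5 copies of Psi28S-3316, in dom, were nearer to each other (2.71 times) and summed to 4631 and 6515 CPM in wtsP2, against 3989 and 2515 in wild type. The sums of this family in the wtsP2 libraries lay above those of the wild-type libraries, while those of Psi18S-1377 overlapped.

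The largest family, Psi18S-525, has 11 copies, of which 10 lie in Arpc2 and Psi18S-525k in Msp300, the gene of a giant nuclear envelope protein. It summed to only 337 and 569 CPM in wtsP2 and 572 and 623 in wild type, with copies from 11.1 to 1257 RPKM. Its neighbour family Psi18S-640, with 7 copies interspersed among Psi18S-525 copies in Arpc2, summed to 685 and 814 CPM in wtsP2 and 572 and 918 in wild type. The 6 copies of Psi28S-1135 in RpS5a summed to 326 and 710 CPM in wtsP2 and to 592 and 33.0 in wild type. The wild-type libraries held the extreme value of 33.0 CPM, so the groups overlapped. Over all H/ACA genes, 6 and 3 were at 0 in the wtsP2 libraries, and 11 and 15 in the wild-type libraries.

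Levels of the class were more alike between the wtsP2 libraries than between the wild-type libraries, of which the second had the fewest counts of all. Across the 105 genes, which are not independent replicates and share library depth, log2(CPM + 1) correlated at Pearson r = 0.929 between the wtsP2 libraries and at 0.782 between the wild-type libraries. Between the groups r was 0.933 and 0.862 for the first and second wtsP2 library with the first wild-type library. With the second wild-type library it was 0.786 and 0.749. The lower values were those of every pair with the second wild-type library, which had 696952 counts. Whether depth plays a part was not tested. The median absolute log2 difference between replicate libraries was 0.81 in wtsP2 and 1.05 in wild type over the 97 tested members, against 0.50 and 1.60 over all tested features. Examples of the wild-type gaps were Psi18S-1854a with 1225 and 3 counts, Psi18S-1389a with 645 and 3 and Psi28S-3327a with 324 and 0, each chosen after its values were seen. The wtsP2 libraries had 416 and 474, 811 and 2649, and 209 and 742 counts of these genes.

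**Figure D3:**
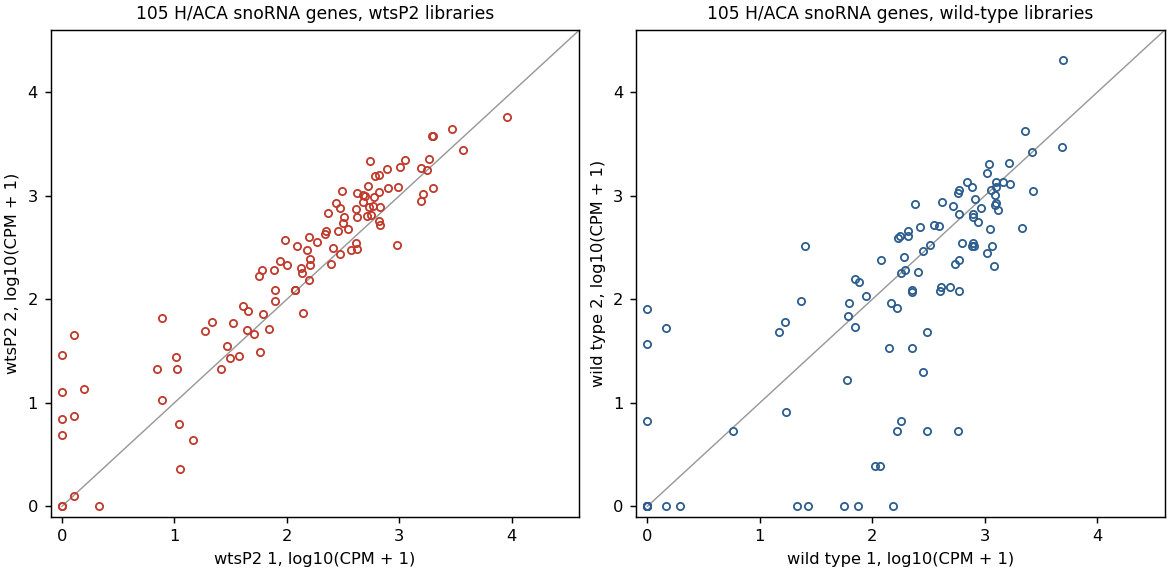
Level of the 105 H/ACA snoRNA genes as log10(CPM + 1) in the second library of a group against the first, for wtsP2 (left) and wild type (right), with the line of equality. Points of the wild-type pair scatter more widely (r = 0.782, against 0.929 in wtsP2), with 15 genes at 0 in the second wild-type library.

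The comparison of wtsP2 with wild type addressed which of these guides differ in amount between the genotypes. The test was edgeR's quasi-likelihood test over all 7278 features that passed the filter on low counts, of which 97 were H/ACA snoRNA genes. The other 8 members were too low to be tested. At an adjusted p under 0.05, edgeR called 0 members higher and 0 lower, as it called 0% of all features in either direction. At an unadjusted p under 0.05, 8 members were higher (8.25%, against 9.91% of all features) and 8 lower (8.25%, against 2.65%). The 8 higher include Psi28S-3405b and Psi28S-2949, which had no wild-type counts and passed the filter through their wtsP2 counts alone. DESeq2 called 1 member higher and 3 lower of 95 with an adjusted p (1.05% and 3.16%, against 1.45% and 1.26% of all features), and limma-voom 0 higher and 1 lower (0% and 1.03%, against 1.69% and 0.371%). With no filter on low counts edgeR called 0 higher and 1 lower of 103 (0.224% and 0.171% of all features).

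Members lay on both sides of 0 in nearly equal number. Their median log2 fold change was -0.11, with 47 positive and 50 negative values, against a median of 0.24 over all features, 0.15 over 99 tested other snoRNA genes and 0.14 over 137 tested features other than members with at most 300 bases. The median of the members became 0.61 when the first wild-type library was dropped (1.33 over all features), 0.46 when the first wtsP2 library was and -0.37 when the second was. For 18 members each wtsP2 library exceeded each wild-type library (18.6%, against 32.3% of all features) and for 19 each was lower (19.6%, against 15.1%). Psi28S-3405b and Psi28S-2949, which passed the filter through wtsP2 alone, are among the 18. The other 60 tested members overlapped. Of the 97, 59 had a log2 fold change of at most 1 in size, 20 lay above 1 and 18 below -1, and standard errors ran from 0.32 to 3.42 (median 0.63, against 1.31 over all features).

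The number of calls rested on the wild-type libraries. Without the first of them, 28 members were higher and 11 lower of 101 tested (27.7% and 10.9%, against 31.5% and 8.53% of all features). Without the second, 5 were higher and 13 lower (4.95% and 12.9%, against 12.3% and 5.67%). Both fits take the spread from the wtsP2 pair alone, as if the single wild-type library varied likewise. Without the first wtsP2 library 0 members were called (0.128% higher and 0.179% lower over all features), and without the second 0 were higher and 1 lower (0.0386% and 0.193% over all features).

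The member with the smallest p was snoRNA:Psi28S-3186 (FBgn0086662; chromosome 3R, 1423737 to 1423879, minus strand), a guide for 28S rRNA in an intron of kra. It had 214 and 271 counts in wtsP2, against 1213 and 735 in the less deeply sequenced wild-type libraries, or 428 and 496 RPKM in wtsP2 against 4044 and 7427 in wild type. The groups did not overlap, with both wtsP2 libraries lower, as in 15.1% of all features. Every wild-type level was many times each wtsP2 level. Its fitted change on the log2 scale was -3.50 ± 0.44 (SE; n = 2 in each group; edgeR adjusted p = 0.293). The gene was the 1 member called lower by limma-voom (adjusted p = 0.0299), by edgeR with no filter (0.00168) and by edgeR when the second wtsP2 library was left out (0.0381). It also passed in DESeq2 (1.62e-08) and when either wild-type library was left out (1.50e-06 for the first, 1.75e-08 for the second). Leaving out the first wtsP2 library gave an adjusted p of 0.0818. Its log2 fold change was negative in all 14 fits made, which reuse the same libraries. With groups this far apart, no change of scaling or dropped library could turn the sign. The gene was picked for its small p-value, so these fits and the lack of overlap are no separate support.

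The other guests of kra mostly had values of the opposite sign. Of 6 other tested guests of kra, 5 had positive log2 fold changes, among them the adjacent Psi28S-3571 at 0.54 ± 0.32 (6225 and 6861 counts in wtsP2, 2687 and 938 in wild type) and Psi28S-3385a at 0.57 ± 0.34. The host kra was at -0.73 ± 0.50. Within each library, where scaling plays no part, Psi28S-3186 supplied 1.12% and 0.845% of the counts of all 8 guests of kra in wtsP2 and 10.7% and 16.3% in wild type. The summed level of the 8 guests overlapped between the groups, at 5430 and 8336 CPM in wtsP2 and 5367 and 6455 in wild type. These shares were looked at after the gene's own values were seen and have no test.

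The other members named for low p-values on the lower side came from several hosts. Psi18S-176 (chromosome 2R, 19727434 to 19727587, minus strand), which lies in no host, had 1453 and 1343 counts in wtsP2 and 2208 and 1152 in wild type, or 2697 and 2282 RPKM against 6832 and 10803. Its log2 fold change was -1.71 ± 0.37 (edgeR adjusted p = 0.368; 0.00469 in DESeq2). Psi18S-640c in Arpc2 had 48 and 13 counts in wtsP2 and 159 and 101 in wild type, at -3.59 ± 1.16 (DESeq2 adjusted p = 0.0447). In each of these genes both wtsP2 levels lay under both wild-type levels, as in 15.1% of all features. The genes were picked for small p-values, so this is no separate support.

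Further members on this side were Psi18S-640d in Arpc2 at -2.06 ± 0.64 and Psi28S-3405d in Hrb98DE, a gene for an hnRNP protein, at -2.01 ± 0.62. Psi18S-1854b and Psi28S-1192b, both in RpS5a, were at -1.93 ± 0.65 and -1.10 ± 0.36, and Psi28S-3436a in RpL17 at -1.26 ± 0.43. All of these had an edgeR adjusted p of 0.368 and groups that did not overlap. They too were picked for small p-values, so the lack of overlap is no separate support. Psi28S-3405d had 838 and 879 RPKM in wtsP2 and 1727 and 5935 in wild type, and its log2 fold change was -0.95 without the second wild-type library. Psi18S-1854b had 1004 and 531 RPKM in wtsP2 and 4315 and 1716 in wild type, and its value became -0.98 when the first wild-type library was dropped.

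On the higher side, 4 of the 8 members with the smallest p-values were guests of dom. Psi28S-3316c (chromosome 2R, 17217632 to 17217764, plus strand) had 2371 and 2984 counts in wtsP2 and 537 and 127 in wild type, or 5101 and 5877 RPKM against 1926 and 1380. Its log2 fold change was 1.82 ± 0.40 (edgeR adjusted p = 0.368; 0.0305 in DESeq2, where it was the 1 member called higher). Psi18S-1389b, Psi28S-3378 and Psi18S-841b, all in dom, were at 1.50 ± 0.52, 1.51 ± 0.58 and 1.28 ± 0.48, and Psi28S-3316b, among the 12 highest members, was at 1.69 ± 0.72 (edgeR adjusted p from 0.368 to 0.444). In these 5 genes the groups did not overlap, and the wtsP2 levels were the higher, as in 32.3% of all features. Of the 5 genes, 4 were picked for small p-values, so this is no separate support. Psi28S-3316b ran from 1.04 to 3.09 and Psi18S-1389b from 1.08 to 2.23 as each library was left out in turn, the highest value being that with the first wild-type library left out. The log2 fold change of Psi28S-3378 ran from 0.92 to 2.16 and that of Psi18S-841b from 0.64 to 1.76 in the same fits.

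The guests of dom mostly had positive values, as did dom, though none passed edgeR's adjusted threshold in the fit of genotype alone to all 4 libraries. Of its 12 tested guests 10 had positive log2 fold changes (median 1.06) and 5 lay above wild type in both wtsP2 libraries (41.7%, against 32.3% of all features), while Psi18S-841c, named after its values were seen, lay below at -1.10 ± 0.54 (655 and 1362 counts in wtsP2, 874 and 606 in wild type). Their summed level was 7054 and 10854 CPM in wtsP2, against 6509 and 4174 in wild type. The dom gene itself was at 0.95 ± 0.37 (3513 and 4816 counts in wtsP2, 1055 and 539 in wild type; edgeR adjusted p = 0.398). The copies share a host and may share reads, so they are not independent.

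The other members named for low p-values on the higher side and counted in wild type lay in RpS20 and Arpc2. Psi18S-1295 in RpS20 had 6914 and 14503 counts in wtsP2 and 2677 and 599 in wild type, at 1.53 ± 0.51 (edgeR adjusted p = 0.368). It supplied 78.9% and 75.1% of the counts of the 2 guests of RpS20 in wtsP2, against 52.9% and 42.9% in wild type, the rest being Psi28S-2562. Since the gene was picked for a small p-value on the same counts, these shares are no separate support and have no test. Psi18S-640g in Arpc2 had 1479 and 1186 counts in wtsP2 and 407 and 134 in wild type, at 1.01 ± 0.37 (edgeR adjusted p = 0.368). Psi18S-640c and Psi18S-640d, of the same host and family, lay on the lower side, and other members lie between them and Psi18S-640g.

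For 2 named genes of low level there were no wild-type counts, so a lower bound takes the place of a fold. The bound allows for counting error in wild type only. It takes the wtsP2 counts as they stand and does not cover the spread between libraries. Both genes passed the filter on low counts through wtsP2 alone and had an edgeR adjusted p of 0.368. Psi28S-3405b in Hrb98DE had 21 and 78 counts in wtsP2, at least 4.58-fold higher in mean CPM against a floor of 3 counts in each wild-type library. Psi28S-2949, in the noncoding snoRNA host gene Uhg4, had 24 and 37 counts in wtsP2, at least 2.87-fold higher on the same floor. Its host Uhg4 had 12 and 0 counts in wtsP2 and 15 and 25 in wild type.

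**Figure D4:**
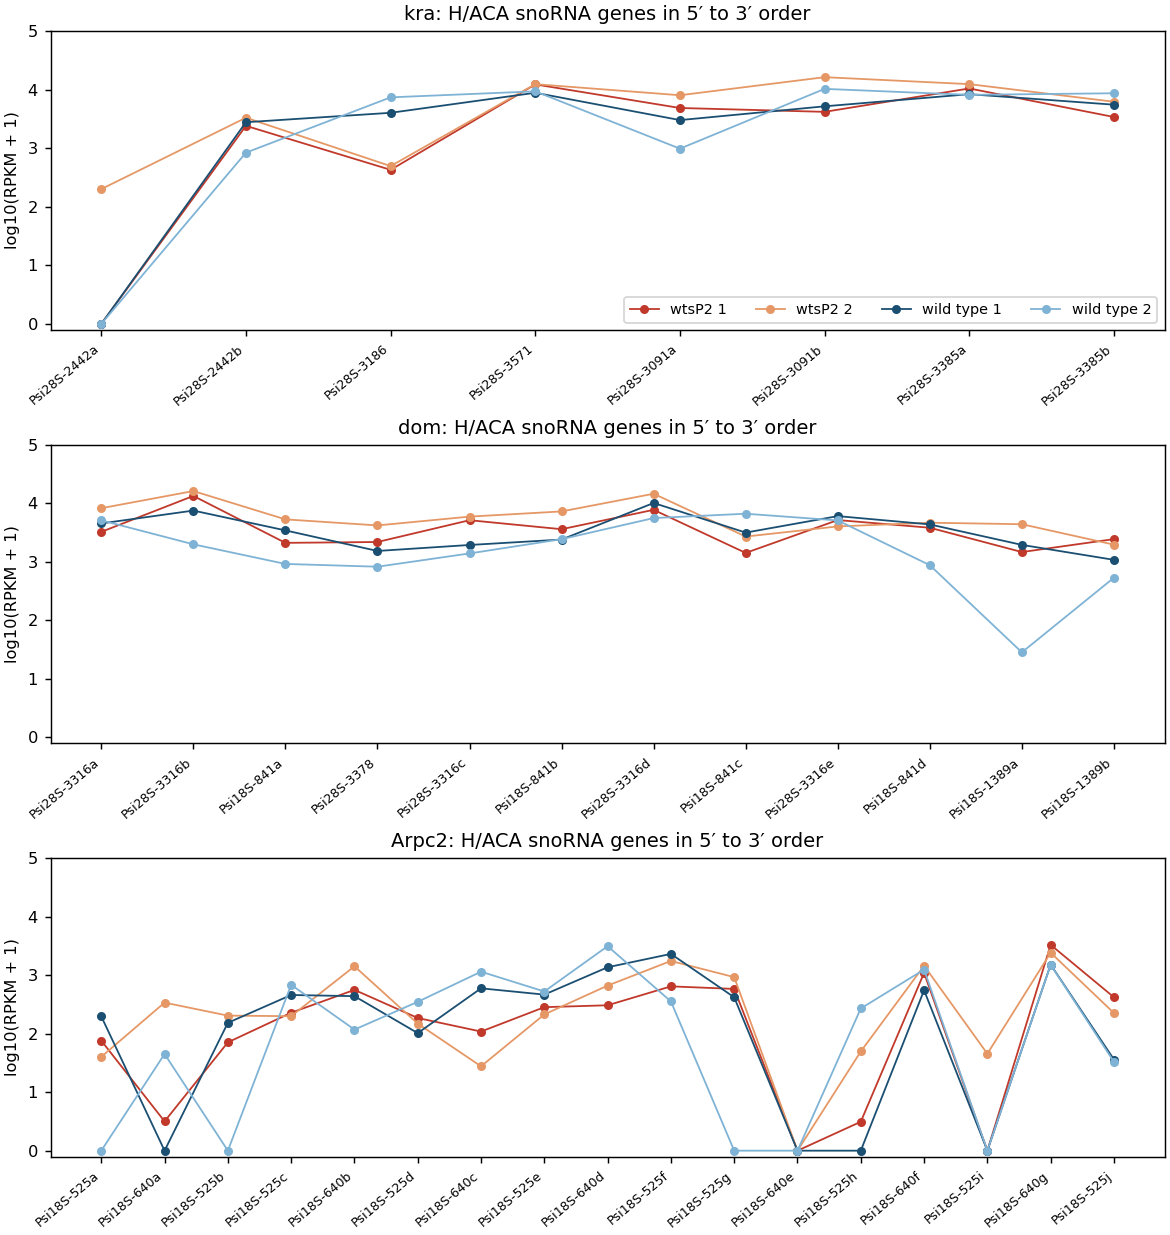
Level, as log10(RPKM + 1), of the H/ACA snoRNA genes in kra, dom and Arpc2, in their 5′ to 3′ order along the host, with 1 line per library (wtsP2 in red and orange, wild type in dark and light blue). In kra only Psi28S-3186 shows both wtsP2 lines far below both wild-type lines; in Arpc2 all libraries jump between neighbouring genes.

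The host genes themselves were tested in the same fit. Of 26 hosts, edgeR called 0 higher and 0 lower, as it called 0% of all features in either direction. At an unadjusted p under 0.05, 3 of the 26 were higher and 1 lower, against 9.91% and 2.65% of all features. Their median log2 fold change was -0.12. Msp300 and RpS4 are named here after their values were seen. Msp300 was at 1.51 ± 0.33 (12973 and 16337 counts in wtsP2, 3001 and 1100 in wild type), while its guest Psi18S-525k was at -2.09 ± 1.53 (24 and 248 counts in wtsP2, 51 and 230 in wild type). Hrb98DE was at 1.32 ± 0.38, and 4 of its 6 tested guests had negative values. RpS4 was at -0.91 ± 0.34 and the median of its 3 guests at 0.74. Across 24 hosts with tested guests, leaving out the noncoding lncRNA:CR42491, whose guest also lies in RpL22, the host and the median of its guests had the same sign in 9, a description with no test.

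**Figure D5:**
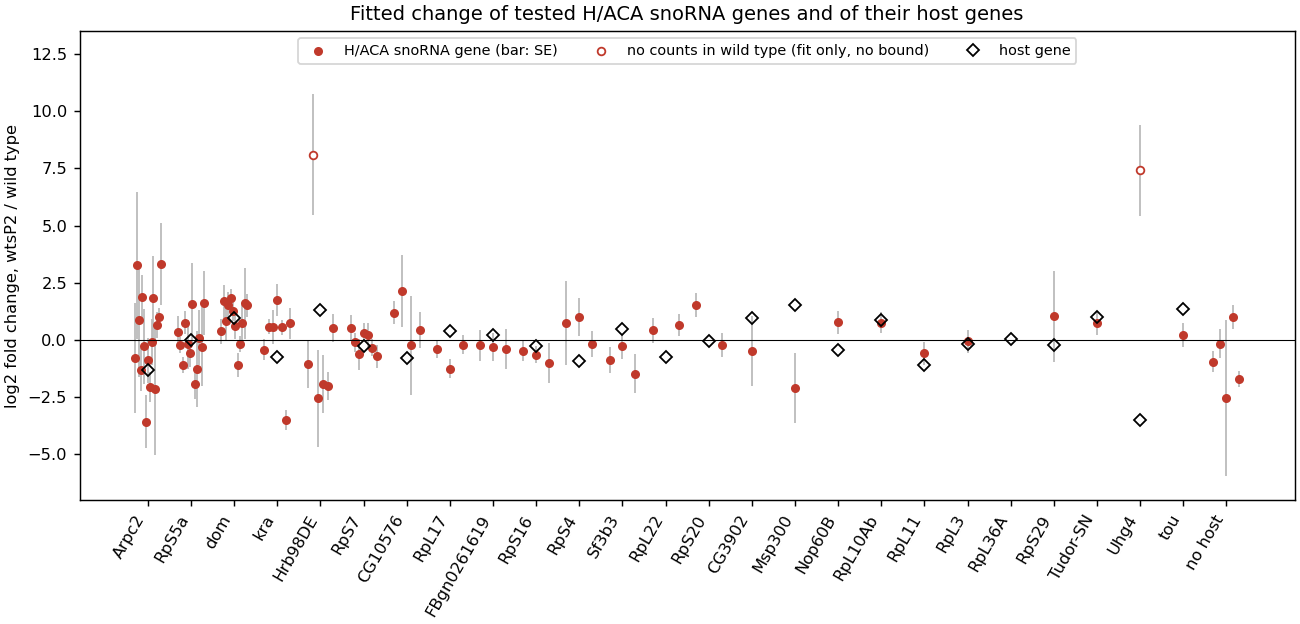
Fitted log2 fold change of wtsP2 over wild type for the 97 tested H/ACA snoRNA genes (red dots, bars are SE) and for their host genes (black diamonds), grouped by host. Open circles have no wild-type counts and are no measure of size; Psi28S-3186 stands at -3.50 among guests of kra that lie near or above 0.

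A list of protein genes for both classes of snoRNA, for their assembly and for nucleolar growth showed no call either. The list held 22 genes, of which 17 were matched by symbol and ID and tested. Of these, edgeR and DESeq2 each called 0 higher and 0 lower. Over all features edgeR called 0% in either direction, and DESeq2 1.45% higher and 1.26% lower. At an unadjusted p under 0.05 in edgeR, 1 of the 17 was higher and 0 lower, against 9.91% and 2.65% of all features. The median log2 fold change of the list was 0.17. By role it was -1.36 for the H/ACA core and 0.84 for assembly, each over 4 tested genes. The assembly value is imprecise, since CG10055, pont and spag had 0, 0 and 1 counts in the second wild-type library. Their SE were 2.40, 1.77 and 1.73. The median was -0.08 for the box C/D core and 0.48 for nucleolar growth. Among the H/ACA core proteins, the synthase gene Nop60B had 2245 and 2365 counts in wtsP2 and 2251 and 501 in wild type, at -0.43 ± 0.39. Nop60B is itself the host of Psi18S-1820, which was at 0.76 ± 0.51. The core genes NHP2 (89 and 82 counts in wtsP2, 202 and 0 in wild type), Nop10 (84 and 38, against 206 and 23) and Gar1 (9 and 78, against 161 and 0) had few counts, and their values of -1.03 ± 2.21, -1.91 ± 1.30 and -1.69 ± 2.62 were imprecise.

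Of the assembly factors, the AAA ATPase genes rept (reptin) and pont (pontin) were at 1.73 ± 0.66 and 0.56 ± 1.77, and rept had 597 and 370 counts in wtsP2 and 70 and 37 in wild type. The box C/D core genes Fib (fibrillarin), Nop56 and nop5 were at -0.08 ± 0.72, -0.57 ± 0.60 and 0.36 ± 0.73. The growth regulator gene Myc was at 0.48 ± 0.35 and Tif-IA, for an RNA polymerase I initiation factor, at 1.07 ± 0.64. The list also held Dhps, for deoxyhypusine synthase, which is no snoRNP factor, at -1.45 ± 2.74 (37 and 13 counts in wtsP2, 0 and 30 in wild type).

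A second table of the authors gave most of these genes no value. In the authors' deposited table of group means, 100 of the 105 H/ACA snoRNA genes were listed at 0 in both groups, although 98 of the 100 had counts in the per-library files. The 5 that were above 0 there were exactly the 5 with no host gene on the same strand. Likewise, of the other snoRNA genes 0 of 105 with such a host were above 0 in that table, against 4 of 6 without one. How that table was counted is not given in the sources used here beyond the tool names.

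For the 5 genes with values there, the directions were the same as in the per-library counts, which come from the same samples. Psi18S-176 had authors' means of 833 in wtsP2 and 2782 in wild type in the authors' deposited table, a ratio of 0.299. Psi18S-301 had 2779 and 1564 in the authors' deposited table, a ratio of 1.78, and was at a log2 fold change of 0.99 ± 0.53 in the per-library counts. Psi28S-2622, which overlaps the gene stet on the opposite strand, had 188 and 418 in the authors' deposited table (-0.96 ± 0.46 in the per-library counts). Psi28S-3342 had 868 and 1261 in the authors' deposited table (-0.17 ± 0.64 in the per-library counts), and Psi28S-1153 had 16.8 and 74.6, from 0 and 45 counts in wtsP2 and 0 and 56 in wild type.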

How the data were processed

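RNA was measured by RNA-seq in 4 libraries of wing discs (2 wtsP2, 2 wild type), prepared with a SOLiD total RNA kit, per the labels' protocols. The deposited per-library files hold whole-number read counts per gene feature with coordinates and lengths. The authors' deposited table holds a normalised signal per gene as group means. The submitters' processing notes name HTSeq, DESeq and the builds BDGP5 and dm3, without versions; the labels name no aligner and no strand setting. Near-identical copies and genes that overlap can share or lose reads in such counting.

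Symbols came from a BDGP6 annotation, with 14346 of 15222 IDs matched. The test was that of edgeR 4.0.16 under R 4.3.3, with filterByExpr, TMM and a robust quasi-likelihood fit on genotype. Benjamini-Hochberg adjustment ran over all tested features, with a threshold of 0.05. The fit was also run on simulated data, whose outcome is not given here. Its common biological coefficient of variation in these data, the fitted spread between libraries of a group, was 92.8%. DESeq2 1.42.0, limma-voom (limma 3.58.1), other scalings and filters, a replicate block and leaving out each library were alternatives. RPKM and CPM used library totals, and shares have 95% Wilson intervals. Library sums over groups were compared by exact permutation tests. A host is a same-strand feature whose span holds the member, and copies differ by the last letter of the symbol.

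Named members are the 12 highest by mean RPKM, up to 8 in each direction with the smallest p, the 4 largest families (a tie kept), their hosts and the protein list. Members and lists were chosen with earlier results of these data known. The list genes Naf1, mgr, hoip, Nop140 and pit, and the markers ap, wg, rn, PPO1, Mhc and btl, were not analysed here.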

Additional observations from a re-analysis of the deposited data

How the results depend on the processing

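Each group held 2 libraries, and the wild-type libraries differed in depth. RLE, library-total and upper-quartile scaling, the stricter filter, TMM without snoRNA and snRNA genes and an adjusted p under 0.1 each left 0 H/ACA genes called. No filter gave 0 higher and 1 lower, DESeq2 1 and 3, and limma-voom 0 and 1. DESeq2 called 1 host higher of 26, against 1.45% of all features. Leaving out each library in turn gave 0 to 28 H/ACA genes higher and 0 to 13 lower, 0 to 5 hosts higher and 0 to 2 lower, and 0 to 7 protein genes higher and 0 to 2 lower. In the same fits 0.0386% to 31.5% of all features were called higher and 0.179% to 8.53% lower. Both highest shares came without the first wild-type library, so the counts of each list follow a wide swing over all features. Each of these fits rests on a single library in 1 group. The median log2 fold change of the H/ACA genes, -0.11 in edgeR with TMM and its filter, ran from -0.37 to 0.61 with each library left out. With all libraries it was 0.11 with no filter, 0.050 in DESeq2 and 0.17 in limma-voom. It lay between -0.19 and -0.11 with the other scalings and the stricter filter. The share difference (wtsP2 minus wild type, -0.348 percentage points) ran from -1.16 to 0.460, and was 0.460 without the first wtsP2 library and 0.0304 without the second wild-type library. The ratio difference (0.0164) ran from -0.130 to 0.163, and was -0.130 and -0.0239 without these libraries. The cause was not tested. Log2 fold changes that turned sign were those of Psi18S-1377d (-1.28 to 0.61), Psi18S-1377c (-0.045 to 0.76), Psi28S-1060 (-0.55 to 0.30), Psi18S-1854c (-1.09 to 0.32) and Psi18S-1377e (-0.43 to 0.35; 0.15 without the second wtsP2 library). For the named H/ACA genes, 309 of the other values kept their direction and side of the threshold and 32 newly passed it. No member overlapped another snoRNA gene, so the setting without such members gave nothing new.

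Replicate numbers were not shown to pair the libraries: deviations of same-numbered libraries from their group means correlated at 0.00864. With the number as a block, edgeR called 3 H/ACA genes higher (3.09%, against 0.948% of all features), Psi28S-3316b, Psi28S-3316c and Psi28S-3091a, and 2 lower (2.06%, against 0.522%), Psi28S-3186 and Psi18S-176. The blocked fit called 1 host higher, and its median log2 fold change was 0.28 over the H/ACA genes and 0.76 over all features.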
